A study of Canis lupus familiaris with 12 samples.

Results

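Mitral valves and left ventricles of diseased dogs were compared gene by gene, to see which differences between the tissues are present in diseased hearts. The disease, degenerative mitral valve disease (DMVD), thickens and weakens the leaflets until blood flows backwards into the left atrium. A gene was included when the authors' tables gave it a completed test (status OK) in both tissues, which held for 13333 of 24223 rows. Of the others, 1477 rows had that status only in the valve table, 455 only in the ventricle table and 8958 in neither, so genes near 0 in 1 of the tissues are mostly outside the comparison. The measure is the log2 ratio of the DMVD valve value to the DMVD ventricle value.

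The samples are whole pieces of tissue, and no drug treatment or genotype is given in the labels. The DMVD valve group holds 3 libraries, from a Pomeranian and Beagles of 9 to 17 years, and the DMVD ventricle group holds 2, taken from that Pomeranian at 9 years and from a Jack Russell Terrier aged 5 years. Only 1 DMVD dog gave both tissues, so tissue, dog, breed and age cannot be told apart in the DMVD contrast. Control valves (3 libraries) and control ventricles (4 libraries) came from Hound mixes aged 3 years and an 8-year-old Beagle, and 3 control dogs gave both tissues. The files hold 1 value per group in FPKM, fragments scaled to gene length and library size. No spread between dogs could be shown, the depth per library is unknown and the contrast itself has no test.

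As background, the mitral leaflet is a thin sheet of interstitial cells, which are fibroblast-like cells in layers of collagen, proteoglycan and elastic fibre, covered by endothelium, with atrial muscle running into its base. In DMVD, known also as myxomatous degeneration, proteoglycan builds up, collagen bundles loosen and interstitial cells take on contractile features. The left ventricle is packed with ventricular muscle cells, rich in mitochondria and fed by dense capillaries. In pieces of tissue, fewer cells of a type and less RNA per cell cannot be told apart.

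The tissue labels were checked against marker genes. The 17 measured sarcomere genes summed to 30158 FPKM in the DMVD ventricle and 11316 FPKM in the DMVD valve, so the valve samples also held heart muscle transcripts. In control hearts the same sums were 32548 and 21369 FPKM. The 14 fibroblast and valve interstitial markers summed to 2933 FPKM in the DMVD valve and 489 FPKM in the DMVD ventricle. None of these 17 and 14 genes, which are those with a ratio, stood at 0 in any group. MYH7, the slow myosin heavy chain, has no ratio because the authors' deposited table marks its ventricle row HIDATA and lists it at 0 in the control ventricle, beside 1280 FPKM in the DMVD valve and 1637 FPKM in the DMVD ventricle. Of all genes compared, 3641 share their listed locus with another row, so that reads may be split between rows. Of those named below these are TPM1, MYL4, NR2F2, IRX3, FHL2, CPT1B, COL6A1, COL4A2, HAS2, MFAP4, EMILIN2, SPARC, TBX18, TGFBR3, TGFBI, MAOB, MYH11, DES, FLT1, ENG, KCNJ8, JUNB, GYPC, CPXM2, LRRC17, ANGPTL7, AQP7, GPR22 and PLIN5.

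Because the tissues were normalised separately, every log2 ratio was recentred on the median of the 11156 rows above 1 FPKM in both DMVD groups, a shift of 0.34. Of 13186 genes above 0 in both groups, 810 were more than 4-fold higher in the valve (6.14%) and 353 more than 4-fold higher in the ventricle (2.68%). These shares are the background for the DMVD list counts below. At 2-fold the counts were 2505 and 1656, at 8-fold 326 and 68, and 9025 genes (68.4%) lay within 2-fold. The median over all of them was 0.10, with quartiles at -0.55 and 0.77. Recentring on the proteasome subunits instead gave 1718 and 113 genes past 4-fold, and taking every row tested in at least 1 tissue gave 1462 and 426. High values favoured the ventricle: of 980 genes at 100 FPKM or more in either tissue, 13.4% were past 4-fold higher in the ventricle and 9.69% in the valve, against 1.46% and 6.17% of the 4945 genes between 5 and 20 FPKM.

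**Figure D1:**
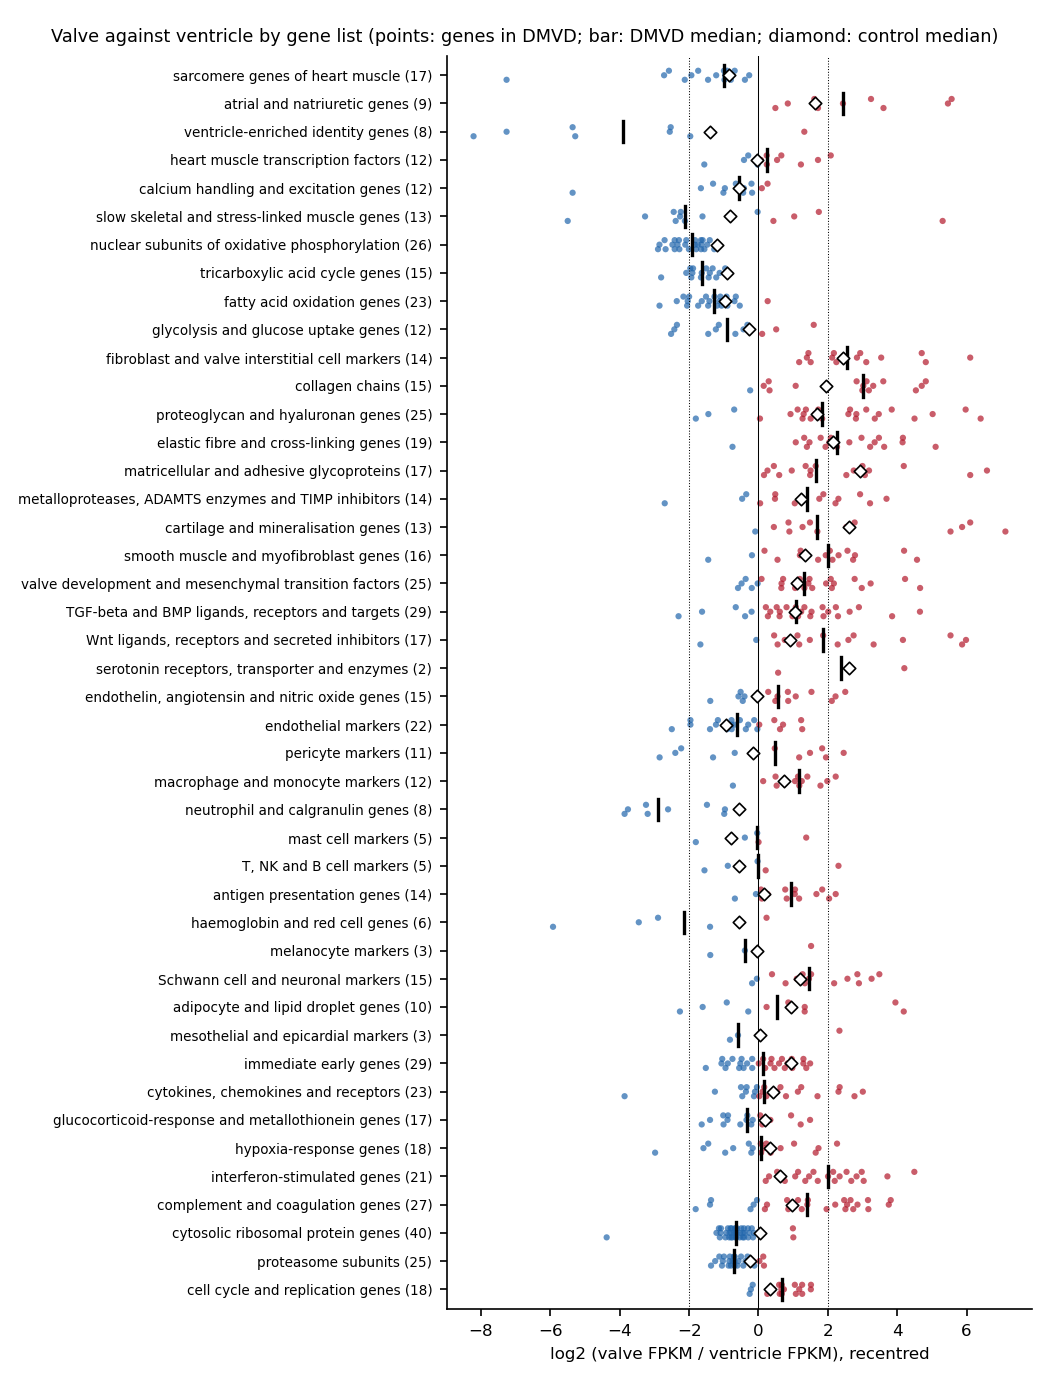
Recentred log2 ratio of valve to ventricle FPKM on the x axis for the members of 44 gene lists, with the number of genes in brackets. Points are genes in DMVD (red above 0, blue below), black bars the DMVD medians, diamonds the control medians and dotted lines 4-fold. Matrix lists lie to the right, with a collagen median of 3.02, and energy lists to the left, with an oxidative phosphorylation median of -1.92.

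Genes of the contractile apparatus were lower in the valve, but by very unequal amounts. MYL3, the essential myosin light chain of ventricular and slow muscle (ENSCAFG00000013618, chromosome 20, 41941315 to 41947260, CanFam3.1), was at 36.6 FPKM in the DMVD valve and 4451 FPKM in the DMVD ventricle, a log2 ratio of -7.26. The cardiac actin gene ACTC1 was at 3164 and 3282 FPKM, a log2 ratio of -0.39. Both make sarcomere proteins, and their ratios lay almost at the ends of the list. Whether the same muscle cells hold both transcripts in each tissue cannot be told from whole pieces of tissue.

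Between these ends, the thin-filament genes TNNC1 and TNNI3, which make the calcium-binding and inhibitory troponins of heart muscle, had log2 ratios of -2.72 and -2.58. TNNT2, the troponin that holds the complex to tropomyosin, had -1.45, and TPM1, the tropomyosin itself, -1.74. MYOZ2, a Z-disc protein, had -2.13. MYBPC3, a thick-filament regulator, had -0.96 and the Z-disc sensor CSRP3 -0.27. Of 17 sarcomere genes with a ratio, 4 were past 4-fold lower in the valve, 0 past 4-fold higher, and the median was -0.996. All 17 were below 0 after recentring, although CSRP3, ACTC1 and, barely, CMYA5 lie above 0 when the proteasome subunits, whose own median was -0.69, set the scale. The myosin heavy chain gene MYH7 was not tested in the ventricle and is outside the comparison.

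Ventricle-enriched identity genes were the lowest list in the valve, with a median log2 ratio of -3.92 and 6 of 8 members past 4-fold. With 1 FPKM added to both values the median was -2.29, and neutrophil genes were then lower at -2.54. IRX4, a homeobox factor of ventricular muscle, was at 0.0135 FPKM in the DMVD valve and 3.18 FPKM in the DMVD ventricle, and IRX3, a related factor of the fast conduction system, at 0.115 and 3.54 FPKM. Their log2 ratios were -8.22 and -5.28. With 1 FPKM added to both values they were -2.32 and -2.30, so the size of these low-level contrasts depends on the scale. KCNJ2, which encodes the inward rectifier channel that holds the resting potential, was at 0.162 and 5.28 FPKM (-5.36, or -2.71 with 1 FPKM added). HAND1 and HEY2, factors of left ventricular and compact muscle, had -2.56 and -2.53. LBH, a transcription cofactor, was the 1 member higher in the valve, at 1.32.

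Atrial and natriuretic genes went the other way. NPPA, the atrial natriuretic peptide gene (ENSCAFG00000016539, chromosome 2, 84406205 to 84408369), was at 2878 FPKM in the DMVD valve and 48.0 FPKM in the DMVD ventricle, a log2 ratio of 5.57. NPPB, the B-type natriuretic peptide gene, was at 1776 and 31.9 FPKM (5.46), and MYL4, the atrial essential light chain, at 1631 and 106 FPKM (3.60). PAM, an atrial granule membrane enzyme that amidates peptides, had 3.24 and NR2F2, a factor of atrial identity, 2.44. Of 9 members with a ratio, 5 were past 4-fold higher in the valve and 9 above 0, with a median of 2.44. The valve group therefore held MYL4 at a level more than 4-fold above the ventricle beside MYL3 at a level more than 8-fold below it.

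**Figure D2:**
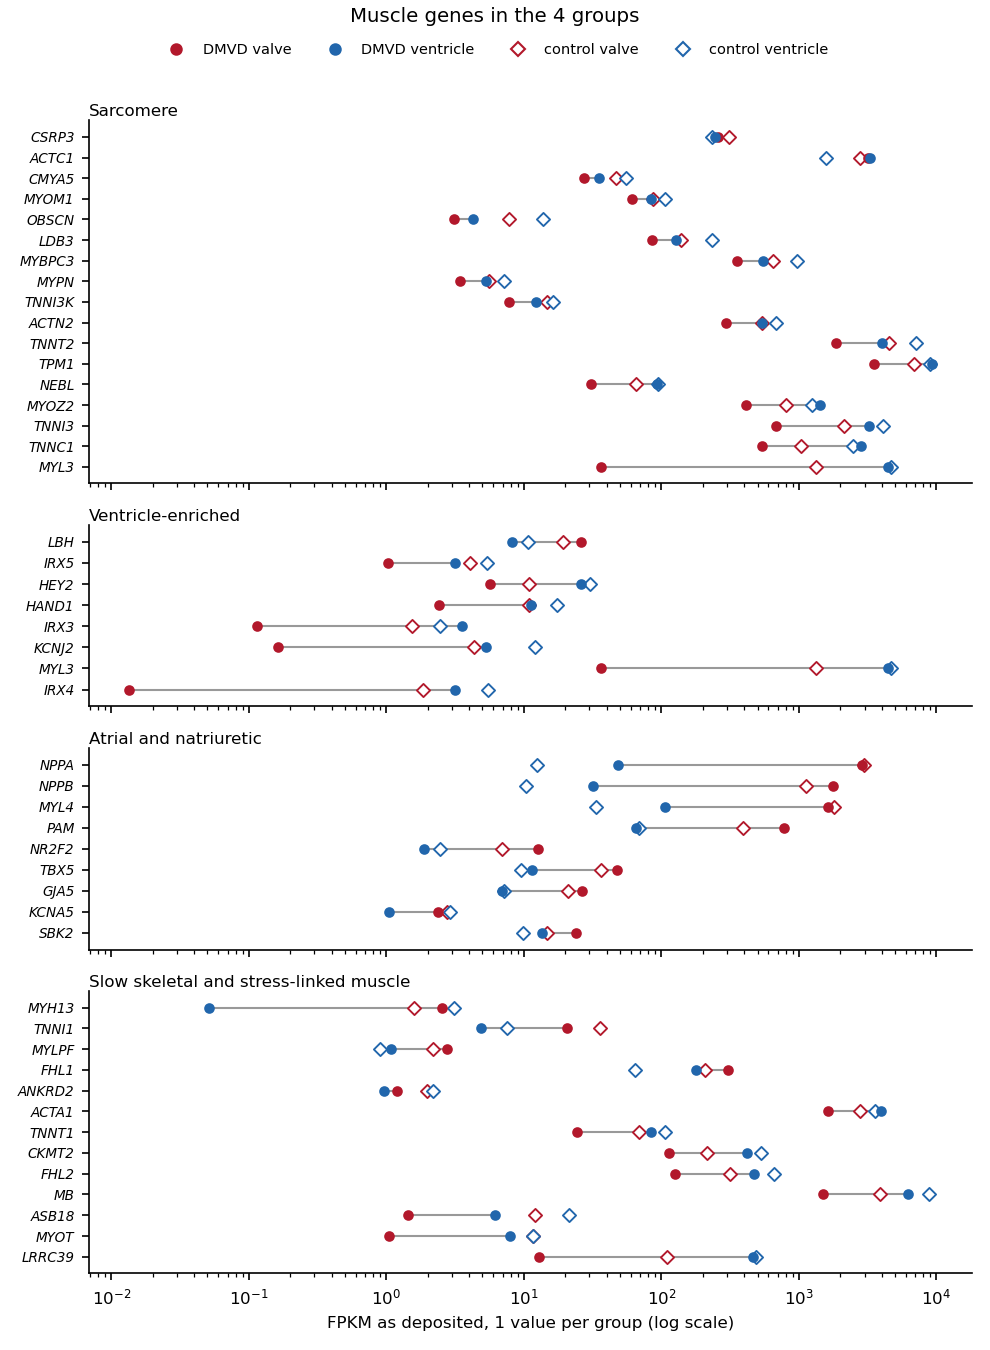
FPKM of muscle genes on a log x axis, 1 value per group, with grey lines joining the DMVD valve (red circle) and DMVD ventricle (blue circle) and diamonds for the control groups. MYL3 spans 36.6 to 4451 FPKM between the DMVD tissues, whereas the ACTC1 circles nearly overlap and NPPA is reversed.

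Most genes shared with slow skeletal muscle were also lower in the valve, with 9 of 13 below 0 and 4 above. MB, the oxygen store myoglobin, was at 1507 FPKM in the DMVD valve and 6235 FPKM in the DMVD ventricle (-2.39), and LRRC39, a partner of myosin at the M-band, at 12.9 and 464 FPKM (-5.50). The cytoskeletal gene MYOT had -3.27 and FHL2, a cofactor at the Z-disc, -2.26. Of 13 genes with a ratio, 7 were past 4-fold lower and 1, MYH13, past 4-fold higher in the valve, with a median of -2.12. MYH13, a myosin of fast muscle, was at only 2.56 and 0.0510 FPKM. The list members CKM and MYBPC1 are outside the comparison and went opposite ways. They were at 840 and 79.8 FPKM in the DMVD valve and at 6855 and 0.0123 FPKM in the DMVD ventricle.

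Calcium handling and transcription factor genes of heart muscle went both ways. ATP2A2, the calcium pump of the sarcoplasmic reticulum, was at 678 FPKM in the DMVD valve and 502 FPKM in the DMVD ventricle, a log2 ratio of 0.10. The calcium buffer CASQ2 had -0.65, the sodium-calcium exchanger SLC8A1 -0.44 and the junction gene TRDN -1.66. The list of 12 had a median of -0.55 that becomes 0.15 on the proteasome scale, and 1 member past 4-fold, KCNJ2. Of 12 cardiac transcription factors 1 was past 4-fold, GATA4 at 2.08 (15.8 and 2.96 FPKM). TBX5, a factor of atria and conduction tissue, had 1.72, the cardiac T-box factor TBX20 0.66 and HAND2 -0.02, and the stress-responsive cofactor ANKRD1 had -1.56.

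Energy metabolism was lower in the valve in nearly every gene measured. All 26 nuclear subunits of oxidative phosphorylation were below 0, from -2.90 to -1.22, which stays below 0 under every scale tried. Of these, 13 were past 4-fold lower in the valve. COX7B, a subunit of cytochrome oxidase, was at 1386 FPKM in the DMVD valve and 8165 FPKM in the DMVD ventricle (-2.90), and the complex I subunit NDUFB3 at 335 and 1916 FPKM (-2.86). The ATP synthase subunit ATP5F1 was at 417 and 1841 FPKM (-2.48). Mitochondrially encoded genes were too high to be tested by the authors' program in the ventricle and are not members.

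The supply of fuel to the mitochondria followed the same direction. All 15 tricarboxylic acid cycle genes were below 0 (median -1.64), led by the succinate-CoA ligase SUCLA2 at 57.9 and 320 FPKM (-2.81). Of 23 fatty acid oxidation genes 22 were below 0 after recentring (median -1.27) and 6 past 4-fold. FABP3, the fatty acid carrier of heart muscle, was at 557 FPKM in the DMVD valve and 3187 FPKM in the DMVD ventricle (-2.85). CPT1B, which admits long-chain fatty acids to the mitochondrion, was at 61.1 and 70.2 FPKM (-0.54). Most glycolysis rows were lower in the valve too, with 9 of 12 below 0, 3 above and a median of -0.91. These 12 rows cover 11 genes, and 3 rows were past 4-fold lower. ENO3, the muscle enolase, had -2.52, while PGAM1 had 0.11 and GPI -0.32.

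Structural collagen genes were higher in the valve. COL1A1 and COL1A2, the chains of type I collagen that bears tension in the fibrous layer of the leaflet, were at 201 and 324 FPKM in the DMVD valve and at 5.61 and 9.82 FPKM in the DMVD ventricle, with log2 ratios of 4.82 and 4.71. COL5A2, which nucleates type I fibrils, had 3.02 and the microfibrillar chain COL6A1 3.12. COL9A2, a chain of cartilage collagen, was at 26.1 and 0.890 FPKM (4.54). The basement membrane chains COL4A1 and COL4A2, made by endothelium and muscle, had 0.15 and 0.32. Of 15 collagen genes with a ratio, 10 were past 4-fold higher in the valve and 0 lower, with a median of 3.02. With 1 FPKM added to both values this median was 1.89. COL3A1, a major collagen of valves, was listed below 1 FPKM in every group and is no member.

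Proteoglycans were led by small leucine-rich members that bind collagen fibrils. BGN, biglycan, was at 933 FPKM in the DMVD valve and 11.7 FPKM in the DMVD ventricle (5.97), and FMOD, fibromodulin, at 77.7 and 0.724 FPKM (6.41). PRELP, an anchor between basement membrane and collagen, had 5.02. DCN, decorin, was the most abundant in both tissues, at 1115 and 311 FPKM (1.505). VCAN, versican, the large hyaluronan-binding proteoglycan known for building up in myxomatous leaflets, was at 138 and 10.7 FPKM (3.35). The hyaluronan synthase HAS2 was at 3.64 and 1.17 FPKM (1.30) and the versican-cleaving protease ADAMTS5 at 1.83 and 2.01 FPKM (-0.47). Of 25 genes 12 were past 4-fold higher in the valve and 0 lower, with a median of 1.84. SRGN, serglycin of blood cell granules, had -1.81.

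Elastic fibre genes were similar in extent, with 12 of 19 past 4-fold higher in the valve and a median of 2.26. MFAP4, a microfibril protein, was at 225 FPKM in the DMVD valve and 5.16 FPKM in the DMVD ventricle (5.11), and LTBP4, which ties latent TGF-beta to elastic fibres, at 260 and 11.5 FPKM (4.16). Elastin itself, ELN, was at 60.1 and 11.5 FPKM (2.04), and fibrillin, FBN1, at 42.8 and 9.78 FPKM (1.79). The cross-linking enzyme LOX had 2.26. EMILIN2 was the 1 member below 0, at -0.75.

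Matricellular proteins, which sit in the matrix and signal to cells, ranged widely. POSTN, periostin (ENSCAFG00000006073, chromosome 25, 3167202 to 3209414), was at 685 FPKM in the DMVD valve and 5.63 FPKM in the DMVD ventricle (6.59). SPARC, which aids collagen assembly, had 3.00 and COMP, a glycoprotein of cartilage and tendon, 6.10. By contrast THBS1, which activates TGF-beta, was at 48.5 and 32.0 FPKM (0.26), SPP1, osteopontin, at 139 and 80.7 FPKM (0.44), and CTGF at 257 and 72.4 FPKM (1.49). Of 17 genes 8 were past 4-fold higher in the valve, and the median of 1.65 lay below the 2.91 of control hearts. In the control ventricle THBS1, SPP1 and CTGF were at 1.80, 16.0 and 10.6 FPKM, lower than in the DMVD ventricle.

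**Figure D3:**
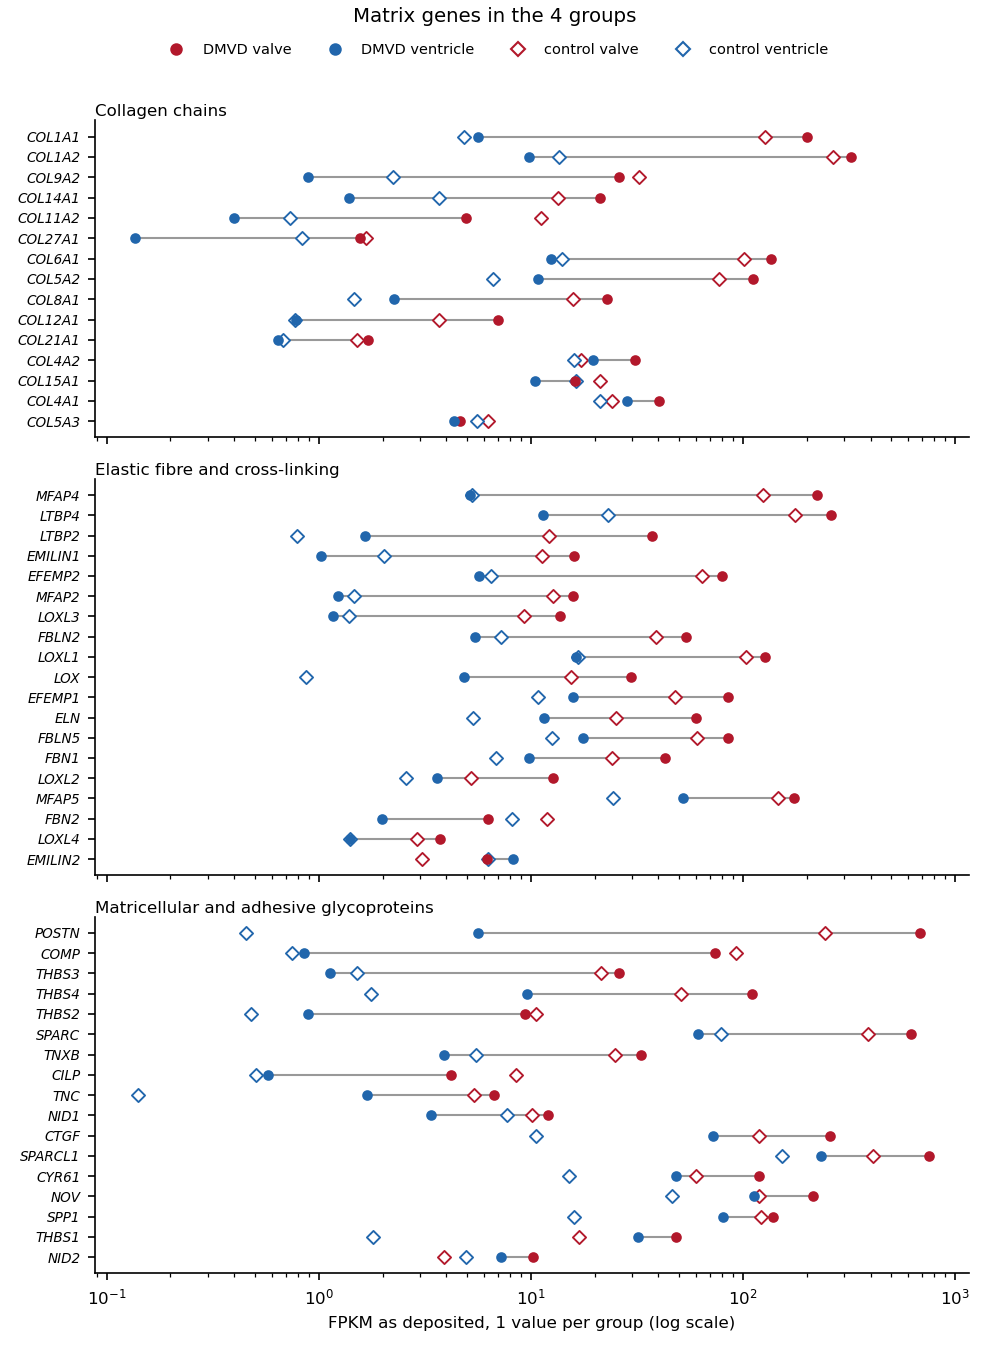
FPKM of matrix genes on a log x axis, 1 value per group, with grey lines joining the DMVD valve (red circle) and DMVD ventricle (blue circle) and diamonds for the control groups. POSTN spans 5.63 to 685 FPKM between the DMVD tissues, while the basement membrane chains COL4A1 and COL4A2 sit close together.

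Cartilage genes that the valve is known to share were among the largest contrasts. SCRG1, a secreted cartilage protein, had the largest ratio of the genes with a symbol and at least 5 FPKM, at 85.7 FPKM in the DMVD valve and 0.487 FPKM in the DMVD ventricle (7.12). With 1 FPKM added it had 5.59, below POSTN at 6.42 and BGN at 5.92. SOX9, the master factor of cartilage, was at 31.5 and 3.65 FPKM (2.77). Of 13 genes 6 were past 4-fold higher in the valve (median 1.70). Among proteases and inhibitors, 5 of 14 were past 4-fold higher and 1 lower (median 1.40). The collagen-degrading cathepsin CTSK had 2.22 and the inhibitor TIMP2 2.30, while ADAMTS9, a versican-cleaving enzyme, was at 3.01 and 15.5 FPKM (-2.70).

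Outside the lists, other genes with the largest ratios toward the valve were CPXM2, a carboxypeptidase-like protein (6.65), the synuclein SNCB (5.99), the matrix remodelling protein MXRA8 (5.90), the retinoic acid carrier CRABP2 (5.89) and the soluble scavenger receptor SSC5D (5.75). Several of these rest on low ventricle values: with 1 FPKM added, CPXM2 had 4.58, SNCB 2.91, CRABP2 3.65 and SSC5D 3.73. LRRC17 and ANGPTL7, at 6.82 and 5.87 (3.71 and 5.29 with 1 FPKM added), share a listed locus with other genes, as CPXM2 does, and their reads may be split between them. Toward the ventricle they were the protease inhibitor SPINK4 (-7.18), the antimicrobial peptide LEAP2 (-5.22), the receptor GPR162 (-4.36), the protease inhibitor SPINK9 (-4.17), the potassium channel partner DPP6 (-4.16), TSPAN19 (-3.96) and C3orf43 (-3.96). AQP7 (-4.71) and GPR22 (-4.06) share their locus. With 1 FPKM added these 9 genes ran from -5.79 for SPINK4 to -2.48 for C3orf43. SPINK4 was at 74.8 FPKM in the DMVD ventricle and 0.654 FPKM in the DMVD valve, and at 17.4 and 0.332 FPKM in control hearts.

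Transcription factors of valve formation showed a graded picture. Of 25 genes 8 were past 4-fold higher in the valve and 0 lower, with a median of 1.32. TBX18, a factor of mesenchymal progenitors, was at 16.1 FPKM in the DMVD valve and 0.679 FPKM in the DMVD ventricle (4.23). PRRX1, a mesenchymal homeobox factor, had 1.44 and SNAI2, which drives the change from endothelium to mesenchyme, 1.55. The homeobox factor MEOX1 and KLF4, the latter a flow-responsive factor of endothelium, had -0.19 and -0.49.

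TGF-beta and BMP genes, whose ligands drive matrix production in valve cells, were modestly higher in the valve, with a median of 1.08 over 29 genes, 7 past 4-fold higher and 1 lower. Among ligands, BMP4 was at 28.3 FPKM in the DMVD valve and 3.01 FPKM in the DMVD ventricle (2.90), and INHBA, an activin subunit, had 3.85. INHBB, the other activin subunit, was at 12.5 and 48.9 FPKM (-2.30). The receptors TGFBR1, TGFBR2 and TGFBR3 had 0.98, 0.61 and 1.32. Of inhibitors and targets, CHRDL1, which binds BMPs, had 4.66, the TGF-beta-induced matrix protein TGFBI 2.29 and the BMP target ID3 1.14. The tables have no row under the symbols TGFB1, TGFB2 and TGFB3.

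Secreted inhibitors set the Wnt list apart. SFRP4 and FRZB, which bind Wnt ligands, were at 95.2 and 77.1 FPKM in the DMVD valve and at 1.19 and 1.04 FPKM in the DMVD ventricle (5.98 and 5.87). SFRP1 had 4.16, WIF1, another Wnt binder, 5.54 and the Dickkopf relative DKK3 3.32. The Wnt target AXIN2 was at 6.56 and 0.775 FPKM (2.74), and the receptor FZD4 had 0.45. DKK2, a Wnt antagonist, was at 9.91 and 25.02 FPKM (-1.68). Of 17 genes 8 were past 4-fold higher in the valve (median 1.86, or 1.19 with 1 FPKM added).

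Of 17 serotonin genes listed, 2 were members. MAOB, which breaks down amines, was at 46.1 FPKM in the DMVD valve and 1.98 FPKM in the DMVD ventricle (4.21), and MAOA, the main serotonin-degrading oxidase, at 21.8 and 11.6 FPKM (0.57). The receptors HTR2A and HTR2B have no row under these symbols. Other listed serotonin genes were tested only in the valve and have no ratio here. The receptors HTR4 and HTR7 were at 2.66 and 1.88 FPKM in the DMVD valve and at 0.00635 and 0.179 FPKM in the DMVD ventricle. The enzyme DDC was at 1.32 and 0.162 FPKM. In the endothelin and natriuretic receptor list, EDN1, endothelin-1, was at 7.20 and 1.01 FPKM (2.50) and its receptor EDNRB at 6.79 and 14.1 FPKM (-1.39). NPR3, which clears natriuretic peptides, had 2.11. Of 15 genes 3 were past 4-fold, all higher in the valve, with a median of 0.55.

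Contractile genes of smooth muscle and myofibroblasts were higher in the valve. TAGLN, an actin-binding protein of smooth muscle, was at 1572 FPKM in the DMVD valve and 210 FPKM in the DMVD ventricle (2.57). ACTA2, smooth muscle actin, was at 74.8 and 15.4 FPKM (1.94), and MYH11, smooth muscle myosin, at 16.4 and 3.11 FPKM (2.06). ITGA8, an integrin of smooth muscle and fibroblasts, had 4.57 and the fibroblast cadherin CDH11 4.20. DES, desmin, which heart muscle also makes, had -1.45. Of 16 genes 8 were past 4-fold higher in the valve, with a median of 1.998, and in control hearts 3 of the same list were (3.53% of all genes, median 1.33).

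Vessel markers were split. Endothelial markers had a median of -0.61 over 22 genes, which becomes 0.08 on the proteasome scale, with 1 past 4-fold lower in the valve and 0 higher. That 1 was SOX17, an arterial factor, at 4.10 FPKM in the DMVD valve and 18.3 FPKM in the DMVD ventricle (-2.50). The VEGF receptor FLT1 had -1.96 and VWF, the clotting protein stored in endothelium, -1.40, whereas ENG, a TGF-beta co-receptor, had 1.23. Of 11 pericyte markers 3 were past 4-fold lower and 1 higher in the valve. The potassium channel KCNJ8 was at 5.34 and 22.3 FPKM (-2.40), and CD248, a stromal protein, at 5.08 and 0.732 FPKM (2.46).

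Most red cell and all 8 neutrophil genes were higher in the ventricle samples. HBA, alpha-globin, was at 604 FPKM in the DMVD valve and 3559 FPKM in the DMVD ventricle (-2.90), and AHSP, its chaperone, at 0.540 and 25.9 FPKM (-5.92). Of 6 genes 3 were past 4-fold lower in the valve (median -2.15). GYPC, a red cell membrane protein, was at 31.6 and 37.0 FPKM (-0.57). S100A12 and S100A8, calcium-binding proteins of neutrophils and monocytes, were at 18.6 and 19.96 FPKM in the DMVD valve and at 200.1 and 149.5 FPKM in the DMVD ventricle (-3.76 and -3.24). The neutrophil attractant IL8 had -3.86. All 8 members were below 0 (median -2.90), 5 past 4-fold, and they summed to 97.0 and 523 FPKM.

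In control hearts HBA was at 34.4 FPKM in the valve and 61.3 FPKM in the ventricle, far below its DMVD values, whereas GYPC was above its own at 58.0 and 69.5 FPKM. The neutrophil list summed to 14.9 and 16.4 FPKM in control. The control medians of the red cell and neutrophil lists were -0.58 and -0.57. The part of blood in the DMVD ratios of other genes was not tested.

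Macrophage and antigen presentation genes were higher in the valve. CD74, the invariant chain of class II molecules, was at 257 FPKM in the DMVD valve and 43.4 FPKM in the DMVD ventricle (2.23), and DLA-DRA, a class II chain, at 266 and 58.9 FPKM (1.84). The complement subunit C1QC, made by tissue macrophages, had 1.41 and the scavenger receptor CD163 0.52. Of 12 macrophage markers 11 were above 0 (median 1.16) and 1 past 4-fold. Of 14 antigen presentation genes 12 were above 0 (median 0.93) and 2 past 4-fold. DLA class I genes are near-identical copies, and their values are uncertain for that reason. T, NK and B cell markers gave 5 members of 20 symbols in the tables, with a median of -0.03 whose sign changes without recentring. T and B cell markers tested only in the valve are outside that median and were higher in the DMVD valve, which that status favours. Among them CD79A was at 1.99 and 0.476 FPKM and CD3E at 1.15 and 0.136 FPKM. Mast cell markers gave 5 members as well, with a median of -0.04 that also changes sign without recentring.

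Most complement and coagulation genes were also higher in the valve, with 21 of 27 above 0 and 6 below. CLU, clusterin, an extracellular chaperone that curbs complement, was at 954 FPKM in the DMVD valve and 53.7 FPKM in the DMVD ventricle (3.81). SERPING1, the C1 inhibitor, had 2.73, and the proteases C1R and C1S 2.85 and 2.51. Of the 27, which include the C1q genes of macrophages, 11 were past 4-fold higher and 0 lower, with a median of 1.41. Von Willebrand factor, VWF, was at 38.1 and 79.5 FPKM (-1.40).

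Every interferon-stimulated gene measured was higher in the valve. All 21 were above 0 (median 2.01), from 0.21 to 4.49, and 11 were past 4-fold, beside 6.14% of all genes. In control hearts 1 of the same 21 was past 4-fold (median 0.63), beside 3.53% of all genes. With 1 FPKM added, the DMVD median was 1.15. IFI6, a mitochondrial protein, was at 45.0 FPKM in the DMVD valve and 1.58 FPKM in the DMVD ventricle (4.49), and already had 4.97 in control hearts. The antiviral GTPase MX1 had 1.35. Most members were low: IFIT3 was at 6.48 and 0.626 FPKM (3.03) and IFIT2 at 2.08 and 0.209 FPKM (2.98), with 1.93 and 1.07 after adding 1 FPKM. None of the 21 passed the test of DMVD against control described below, and 0 shifted significantly in either direction.

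Acute response lists were close to balanced in DMVD. Immediate early genes, which cells switch on within minutes of a stimulus, had a median of 0.13 over 29 genes with 0 past 4-fold. In control hearts the median was 0.93, with 3 past 4-fold higher in the valve, beside 3.53% of all genes. JUNB, of the AP-1 family, was at 163 FPKM in the DMVD valve and 118 FPKM in the DMVD ventricle (0.13), and at 65.5 and 19.4 FPKM in control hearts (1.44). Hypoxia-response genes had a median of 0.07 over 18 genes. Glucocorticoid and metallothionein genes had -0.32 over 17 genes, which becomes 0.02 without recentring. Cytokine and chemokine genes had 0.16 over 23 genes, with 4 past 4-fold higher in the valve, such as the alarmin IL33 at 127 and 12.5 FPKM (3.01), and 1 lower, IL8.

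Genes of general cell upkeep were measured as a check of scale. Proteasome subunits had a median of -0.69 (25 genes) and cytosolic ribosomal protein rows -0.66 (40 rows), the latter becoming 0.04 on the proteasome scale. In control hearts these medians were -0.25 and 0.05. Cell cycle genes had 0.67 over 18 genes, with 0 past 4-fold in either direction.

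The tissue contrasts of diseased hearts were then set against those of control hearts, whose ratios were recentred in the same way by 0.31. In control hearts, 466 of 13203 genes were past 4-fold higher in the valve (3.53%) and 106 past 4-fold higher in the ventricle (0.803%). Of the 810 genes higher in the DMVD valve, 311 (38.4%) were past 4-fold in control as well, 264 between 2-fold and 4-fold the same way, 199 within 2-fold, 26 past 2-fold the other way and 10 without a ratio. Those 311 are 66.7% of the control set. Of the 353 genes higher in the DMVD ventricle, 47 (13.3%) were past 4-fold in control, 200 between 2-fold and 4-fold, 82 within 2-fold, 9 past 2-fold the other way and 15 without a ratio. Those 47 are 44.3% of the control set. Among genes of at least 5 FPKM in the higher tissue the shares held were 49.6% of 558 and 13.6% of 287.

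Most contrasts had the same direction in control at a smaller size, which a choice by the DMVD value itself favours. The 353 ventricle-higher genes had a median of -2.41 in DMVD and -1.32 in control, and the 810 valve-higher genes 2.77 and 1.68. Lists are set side by side next. They were not cut by this ratio, but they were chosen with earlier results of these data known. Oxidative phosphorylation had -1.92 against -1.20, fatty acid oxidation -1.27 against -0.95, and ventricle-enriched genes -3.92 against -1.40. The lists measured as a check of scale moved the same way. Proteasome subunits had -0.69 against -0.25 and ribosomal protein rows -0.66 against 0.05. How far scale sets the differences of the other lists was not tested. Matrix lists went both ways. Collagens had 3.02 against 1.95, elastic fibre genes 2.26 against 2.16, fibroblast markers 2.54 against 2.43 and proteoglycans 1.84 against 1.68, while matricellular genes had 1.65 against 2.91 and cartilage genes 1.70 against 2.61. With 1 FPKM added, the DMVD medians were 1.89 for collagens and -2.29 for ventricle-enriched genes. Control medians on that scale are not given here, so the size of these list differences depends on the scale. Across 13099 genes the ratios of the diagnoses had a Pearson r of 0.68 and a Spearman rho of 0.71, a description only, since the groups of a tissue share annotation, gene lengths and normalisation. Among the 10672 genes of at least 1 FPKM in all groups they were 0.77 and 0.74.

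**Figure D4:**
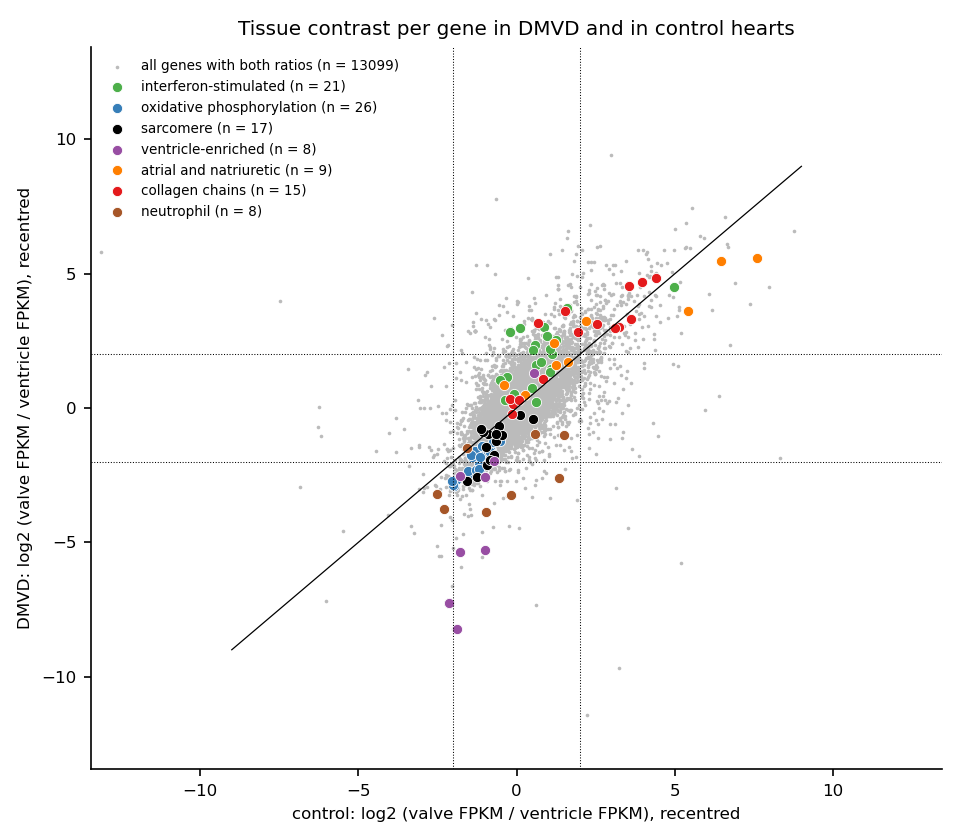
Recentred log2 ratio of valve to ventricle FPKM in control hearts (x axis) and in DMVD hearts (y axis) for 13099 genes in grey, with 7 lists coloured, equality as the diagonal and 4-fold as dotted lines. Collagens lie toward the upper right, with medians of 1.95 in control and 3.02 in DMVD, ventricle-enriched and neutrophil genes mostly below it, and interferon-stimulated genes mostly above it.

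Whether a contrast itself differed between DMVD and control could be tested. DMVD dogs were aged 5 to 17 years and control dogs 3 or 8 years, and of the breeds only Beagle was in both diagnoses. Diagnosis, age and breed therefore cannot be told apart in this test. The difference equals the DMVD-over-control log2 fold change of the valve minus that of the ventricle, and its standard error (SE) came from the authors' test statistics. Of 13099 genes, 5 shifted toward the valve (0.0382%) and 9 toward the ventricle (0.0687%) at a Benjamini-Hochberg adjusted p of 0.05, and 348 had an unadjusted p below 0.05. The median SE was 0.79, so only large differences could pass. If the SEs of the tissues were added outright, 0 passed and 98 had an unadjusted p below 0.05. That is the widest SE that dependent errors could give, reached when the errors of the tissues are fully opposed. Errors that move together would give a smaller SE than the one used, and this was not tried.

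MYL3 had the smallest adjusted p of the genes that shifted toward the ventricle. Its log2 ratio was -7.26 in DMVD and -2.12 in control, a difference of -5.12 ± 0.96 (SE, Benjamini-Hochberg adjusted p of 0.000369). The values were 36.6 FPKM in the DMVD valve, 1335 FPKM in the control valve, and 4451 and 4676 FPKM in the ventricles, so the DMVD valve is the group that stands apart. A row listed by the UniProt entry name Q8WN71_CANFA, with no gene symbol in the tables (chromosome 26, 8623641 to 8632895), had the same pattern, at 15.9, 1943, 3754 and 6223 FPKM in that order, and a difference of -6.20 ± 1.26 (Benjamini-Hochberg adjusted p of 0.00235). No other gene of the heart sarcomere list passed: TNNI3 had a difference of -1.31 and TNNC1 of -1.14. IRX3 had -4.27 (Benjamini-Hochberg adjusted p of 0.238) and KCNJ2 -3.54 (Benjamini-Hochberg adjusted p of 0.840), neither past the threshold.

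For the others that shifted toward the ventricle, the DMVD ventricle was the high group in several. STC1, a secreted glycoprotein hormone, was at 14.9 FPKM in the DMVD valve and 92.8 FPKM in the DMVD ventricle, against 3.35 and 2.22 FPKM in control, a difference of -3.24 ± 0.75 (Benjamini-Hochberg adjusted p of 0.0229). MT2, a metal-binding metallothionein, was at 531 and 771 FPKM in DMVD and at 73.3 and 5.75 FPKM in control (-4.21 ± 0.91, Benjamini-Hochberg adjusted p of 0.00756). The lysozyme row LYSC1_CANFA was at 4.83 and 83.7 FPKM in DMVD and at 5.14 and 3.89 FPKM in control (-4.52 ± 0.92). OTUD1, a deubiquitinase, was at 9.75 and 39.0 FPKM in DMVD and at 27.5 and 12.2 FPKM in control (-3.17 ± 0.76, Benjamini-Hochberg adjusted p of 0.0290). For MT2 the contrast changed sides, from 3.36 in control to -0.88 in DMVD.

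Toward the valve, OLFML2A, a secreted olfactomedin-domain protein, was at 13.7 FPKM in the DMVD valve and 0.379 FPKM in the DMVD ventricle, against 3.22 and 2.03 FPKM in control, a difference of 4.51 ± 0.78 (Benjamini-Hochberg adjusted p of 4.32e-05). CSGALNACT1, which starts chondroitin sulphate chains on proteoglycans, was at 8.74 and 0.553 FPKM in DMVD and at 3.55 and 2.16 FPKM in control (3.27 ± 0.72, Benjamini-Hochberg adjusted p of 0.00964). CCDC85C, a cell junction protein, was at 4.57 and 0.234 FPKM in DMVD and at 6.397 and 4.98 FPKM in control (3.93 ± 0.94, Benjamini-Hochberg adjusted p of 0.0305). In these 3 genes the contrast went from within 2-fold in control to past 8-fold in DMVD, with the DMVD ventricle, below 1 FPKM in each, as the lowest group. With 1 FPKM added their DMVD ratios were 3.14 for OLFML2A, 2.37 for CSGALNACT1 and 1.900 for CCDC85C, so that only OLFML2A stayed past 8-fold.

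**Figure D5:**
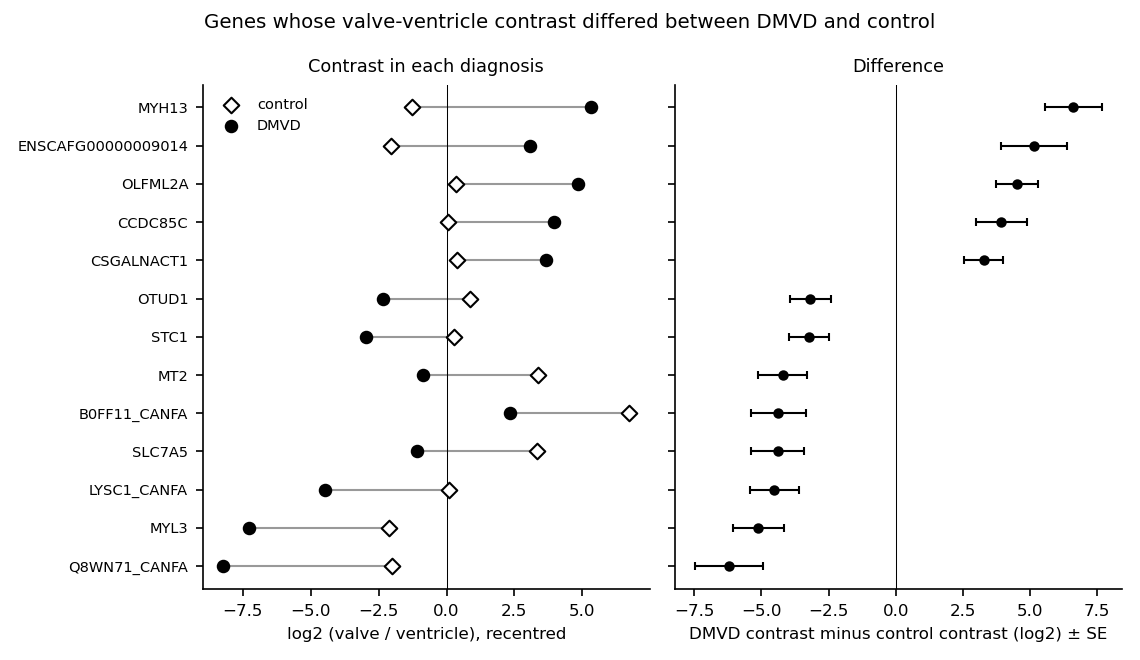
Left, the recentred log2 ratio of valve to ventricle in control (diamond) and DMVD (circle) for 13 of the 14 genes whose contrast differed at an adjusted p of 0.05. Right, the difference ± SE, from -6.20 for Q8WN71_CANFA to 6.61 for MYH13.

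None of the matrix genes of the collagen, proteoglycan and matricellular lists passed this test, which few genes of any kind did. COL1A1 had 4.82 in DMVD and 4.41 in control, a difference of 0.44, BGN had a difference of 0.52, and FMOD of 0.64. VCAN had 3.35 and 4.78 (-1.40), POSTN 6.59 and 8.76 (-2.15) and NPPA 5.57 and 7.595 (-2.003), each smaller in DMVD without passing. Their ventricle values were higher in DMVD than in control, at 10.7 against 2.17 FPKM for VCAN, 5.63 against 0.453 FPKM for POSTN and 48.0 against 12.4 FPKM for NPPA. Valve values were also higher in DMVD for VCAN (138 against 74.3 FPKM) and POSTN (685 against 245 FPKM). For NPPA they were 2878 FPKM in DMVD and 2984 FPKM in control. Of 15 collagen, 25 proteoglycan and 17 matricellular genes tested, 0 passed.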

How the data were processed

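The series holds RNA sequencing of 12 libraries from 8 dogs, as valve or ventricle, DMVD or control. RNA came from a kit for fibrous tissue and libraries from a TruSeq kit, per the labels. cutadapt, Bowtie, TopHat and CanFam3.1 are named in the submitters' processing notes, without versions. No source used here names the program that made the gene values.

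Each tissue has 1 table deposited by the authors, with 24223 rows. Its group values are read here as FPKM, from the columns laid out as in a Cuffdiff gene table, per the file headers. The authors' deposited log2 fold change (control over DMVD), the deposited test statistic, a score, and the deposited unadjusted p-value served only for the SE, which is the absolute log2 fold change divided by the statistic. Strand and the handling of near-identical genes are not stated there. No values per library were used, so there is no SD and depth is unknown.

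Ratios used rows of status OK in both tables and above 0, recentred on rows above 1 FPKM in both. The difference test took the root of the summed squared SEs and a two-sided normal p, with Benjamini-Hochberg adjustment over 13099 genes. Dogs that gave both tissues make those SEs not fully independent. Replicates are different dogs, but their spread enters only through the authors' SE. The test was also run on simulated data, drawn from the same SEs with independent tissues. That setting cannot show how it behaves when tissues share dogs or when the SEs are off.

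The members, the 44 lists and the named genes were chosen with earlier results of these data known. Named genes were the 15 largest ratios in each direction (symbol, at least 5 FPKM in the higher tissue), up to 4 of the highest members of each list, fixed study genes, and up to 10 each way past the difference test with at least 5 FPKM in 1 group. Other list members are examples chosen after their values were seen. A few genes that these rules name, 1 of them past the difference test, are counted but not reported here. Of 1033 listed symbols, 644 were members. UniProt entry names were translated to symbols for 107 rows. Alternatives covered scale, added FPKM, level, locus sharing, fold and SE. Positions are on CanFam3.1, counted from 1. The software was matplotlib 3.10.9, scipy 1.17.1, pandas 2.3.3, numpy 2.4.6 and Python 3.11.15.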

Additional observations from a re-analysis of the deposited data

Results flagged for a closer look

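In 14 rows the contrast of valve over ventricle differed between DMVD and control by the test of the difference itself (Benjamini-Hochberg adjusted p below 0.05 over 13099 genes), all on the log2 scale and none with the SEs of the tissues added outright. Toward the valve these were MYH13 (6.61 ± 1.05), OLFML2A (4.51 ± 0.78), CCDC85C (3.93 ± 0.94), CSGALNACT1 (3.27 ± 0.72) and the unnamed row ENSCAFG00000009014 (5.15 ± 1.23). Toward the ventricle those given here were Q8WN71_CANFA (-6.20 ± 1.26), MYL3 (-5.12 ± 0.96), LYSC1_CANFA (-4.52 ± 0.92), SLC7A5 (-4.40 ± 0.99), B0FF11_CANFA (-4.37 ± 1.03), MT2 (-4.21 ± 0.91), STC1 (-3.24 ± 0.75) and OTUD1 (-3.17 ± 0.76). MYH13, SLC7A5 and ENSCAFG00000009014 stayed below 5 FPKM in every group, with 3.08, 4.35 and 1.18 FPKM as their highest values. B0FF11_CANFA, a row without a symbol on chromosome 24 (32504712 to 32505833), was at 657 FPKM in the DMVD valve, 103 in the DMVD ventricle, 265 in the control valve and 2.005 in the control ventricle.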

How the results depend on the processing

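No paired analysis was possible because the tables hold 1 value per group and none per library, and for the same reason no library could be left out and depth sets no stated limit. Genes past 4-fold higher in the valve (810) became 1718 on the proteasome scale, 442 with 1 FPKM added, 2505 at 2-fold, 326 at 8-fold and, chosen after seeing the data, 1462 over rows tested in at least 1 tissue. Genes past 4-fold higher in the ventricle (353) became 200 without recentring, 113 on the proteasome scale, 1656 at 2-fold, 68 at 8-fold and, chosen after seeing the data, 209 over rows with a symbol. Contrasts shared with control, 311 toward the valve and 47 toward the ventricle, became 195 and 28 with 1 FPKM added and 1098 and 625 at 2-fold, and the 47 became 20 without recentring. The 5 and 9 shifted genes both became 0 with SEs added, which widens every SE, and were 5 and 10 with the difference recentred and 4 and 9 over genes averaging at least 1 FPKM in both tissues. Of 44 list medians, 3 changed sign without recentring, 8 on the proteasome scale and 0 with 1 FPKM added, all of them within 0.66 of 0. Of 190 named genes with a ratio, 90 were past 4-fold, and 5 of these were no longer so without recentring and 7 with 1 FPKM added. Apart from these scale effects, the cause of the changes was not tested.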

Other observations

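Genes outside the comparison because the ventricle table did not test them include some of the most valve-restricted of the lists, 71 listed symbols in all. KCNJ3, a potassium channel of atrial muscle, was at 54.8 FPKM in the DMVD valve and 0.0422 FPKM in the DMVD ventricle. MYBPC1, slow skeletal myosin-binding protein C, was at 79.8 and 0.0123 FPKM. The cartilage genes ACAN, aggrecan, and CYTL1, a secreted chondrocyte factor, were at 24.9 and 109 FPKM in the DMVD valve and at 0.00663 and 0.0373 FPKM in the DMVD ventricle, and CLEC3A was at 29.8 FPKM and listed at 0. In the control valve KCNJ3 was at 47.6, MYBPC1 at 92.4, ACAN at 41.5 and CYTL1 at 38.9 FPKM, with each below 1 FPKM in the control ventricle.

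Of 289 rows of small or non-coding RNA with a ratio, 70 (24.2%) were past 4-fold higher in the DMVD valve, against 5.84% of 10237 rows with a symbol. Toward the DMVD ventricle 27 of the 289 were past 4-fold, against 209 of the 10237, so large ratios were frequent in both directions. The 33 rows named 5S rRNA had a median log2 ratio of 4.97 in DMVD and 1.92 in control, with 25 and 15 past 4-fold. These 25 are among the 70, and the rows are similar short copies, so they are not separate measurements. Those with the largest ratios stood below 1 FPKM in the DMVD ventricle. One of them, ENSCAFG00000021789, was at 55.4 and 0.538 FPKM in DMVD, with a difference from control of 4.78 ± 12.5 (SE). Among rows with no name, ENSCAFG00000032057 and ENSCAFG00000029493, neighbours on chromosome 26 (27624214 to 27624534 and 27620223 to 27620543), were at 743 and 585 FPKM in the DMVD valve and at 9.498 and 7.18 FPKM in the DMVD ventricle. Their control valve values were 258 and 198 FPKM and their control ventricle values 5.22 and 3.87 FPKM.

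Schwann cell and neuronal markers were higher in the valve, with 6 of 15 past 4-fold, 0 lower and a median of 1.46. S100B, a calcium-binding protein of glia, was at 7.15 and 0.590 FPKM (3.26). Among 10 adipocyte genes, PLIN1, which coats lipid droplets in fat cells, was at 5.64 and 0.245 FPKM (4.19), while PLIN5, which does so in oxidative muscle, was at 5.58 and 21.2 FPKM (-2.27) and shares its listed locus with other rows.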
